A study of Homo sapiens with 6 samples.

Results

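The transcription units (TUs) described here are the long noncoding RNA (lncRNA) genes whose counted transcript lies across a protein-coding gene and is read in the same direction. They were found by joining the transcript IDs of the count tables to the GENCODE annotation, release 44, and 1300 of the 37339 matched transcripts (1296 genes) met the rule. Another 20 sense-overlapping lncRNA transcripts were left out by name, namely those with symbols ending in -DT or starting with SNHG or MIR, and a few well-known lncRNAs such as GAS5 and TUG1. The 1300 members were split into 568 that share at least 1 exon base with the coding gene (exon overlap) and 732 that share none (no exon overlap). All values come from K562, a human chronic myelogenous leukemia cell line, grown without treatment in RPMI-1640 medium with serum and antibiotics, with the cells of both assays taken from the same flask. PRO-seq (n = 2) sequenced the nascent RNA held by engaged RNA polymerases, and total RNA-seq after rRNA depletion (n = 4) sequenced steady-state RNA, spliced or not. The libraries of 1 assay are replicates of 1 culture, so the p-values measure the spread between libraries. The libraries held 5732780 to 9002746 counts on transcripts in RNA-seq, and 6993816 and 7245632 in PRO-seq. All 9 markers of K562 and erythroid cells that were checked (GATA1 and the fetal globin genes among them) were above 1 TPM in RNA-seq, and of the 7 markers of other cell types that were matched only EPCAM was, at 118.6 TPM.

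A lncRNA can lie across a coding gene in several ways. It may sit wholly in an intron, be a noncoding transcript that uses some of the coding exons, start in the coding gene and run past its end, or start upstream and end inside it. Spliced, capped and polyadenylated lncRNAs can be as long-lived as mRNAs, whereas many noncoding transcripts are degraded in the nucleus soon after they are made. For a sense-overlapping lncRNA the reads of the shared bases could come from either transcript, and for an intronic one RNA-seq reads of the unspliced coding transcript cannot be told apart from reads of the lncRNA.

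Sequences of 2 members with exon overlap show what sharing an exon means here. Each is 120 bases of the member's spliced transcript around the point where coding sequence begins, taken from the GENCODE transcript set on GRCh37. Capitals mark the bases that are coding sequence in the overlapped coding gene, and lower case marks bases outside every exon of the coding genes that the member overlaps. In ENSG00000272084 (UBR4, chr1:19401331-19401450, minus strand) and ENSG00000264772 (chr17:7483068-7483187, plus strand) the change falls within 1 exon, so that the member reads from intron into coding exon without splicing.
ENSG00000272084: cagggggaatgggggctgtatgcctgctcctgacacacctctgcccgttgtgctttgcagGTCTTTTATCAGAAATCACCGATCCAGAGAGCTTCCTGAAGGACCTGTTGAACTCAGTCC
ENSG00000264772: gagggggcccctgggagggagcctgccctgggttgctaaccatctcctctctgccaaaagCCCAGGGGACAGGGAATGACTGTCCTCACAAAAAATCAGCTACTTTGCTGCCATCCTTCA

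Members without exon overlap are shown by their 3′ ends, the last 60 bases of the annotated transcript, for 3 of those with the highest RNA-seq level and for GABPB1-IT1. Capitals mark the poly(A) signals AATAAA or ATTAAA, searched on the transcript's own strand in its last 50 bases, with overlapping matches allowed. All 4 windows lie in an intron of the coding gene, at chr16:31135215-31135274 on the plus strand (KAT8), and on the minus strand at chr17:40424087-40424146 (STAT5B), chr13:111546986-111547045 (ANKRD10) and chr15:50641133-50641192 (GABPB1), all on GRCh37.
ENSG00000278133: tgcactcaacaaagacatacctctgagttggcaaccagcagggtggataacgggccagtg
ENSG00000278829: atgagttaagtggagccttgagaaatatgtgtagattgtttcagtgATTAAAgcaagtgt
ANKRD10-IT1: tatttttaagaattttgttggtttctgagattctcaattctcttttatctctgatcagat
GABPB1-IT1: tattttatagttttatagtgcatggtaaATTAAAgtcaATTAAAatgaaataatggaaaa

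Over all 1300 members, 39.8% held either signal in the last 50 bases of the transcript, against 70.5% of 19032 mRNAs, 48.1% of 7107 lincRNAs (lncRNAs that overlap no coding gene) and 41.0% of 4747 antisense lncRNAs. The share was 41.7% with exon overlap and 38.4% without. Among members inside a coding gene without exon overlap it was 36.4% for the 184 with at least 10 RNA-seq counts and 45.0% for the 229 with none. The median GC content of the spliced transcript was 49.2% with exon overlap, close to the 49.6% of mRNAs, and 44.2% without. A match to these letters is a description of the annotated 3′ end and no more.

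The subgroups differed in size. With exon overlap the median span was 18850 bp, the median exon length 987.5 bp and the median exon number 3, against spans of 9819 bp for lincRNAs and 7886 bp for antisense lncRNAs, both also with 3 exons. With no exon overlap the median span was 3020 bp, the median exon length 655 bp and the median exon number 2, and 151 of 732 (20.63%) had 1 exon only, against 3.4% of mRNAs. Most members lay wholly inside the coding gene. By position, 809 members lay inside, 200 started upstream and ended inside, 220 started inside and ran past the end, and 71 spanned the whole coding gene. Position and exon overlap went together, since 635 of the 809 members inside shared no exon base whereas 195 of the 220 that ran past the end did.

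Detection differed between the assays in a way that followed the position. At least 1 RNA-seq count was found for 791 members (60.85%) and at least 1 PRO-seq count for 461 (35.46%). Among mRNAs the shares were 84.86% and 87.89%, and among lincRNAs 46.97% and 68.79%. Counts in both assays were found for 286 members, in RNA-seq only for 505, in PRO-seq only for 175 and in neither for 334. Of the 635 members inside a coding gene without exon overlap, 406 (63.94%) had an RNA-seq count and 26 (4.094%) a PRO-seq count. In the other 3 positions 54.9% to 57.3% of members had an RNA-seq count and 81.0% to 94.4% a PRO-seq count, so the order of the assays was the opposite.

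**Figure D1:**
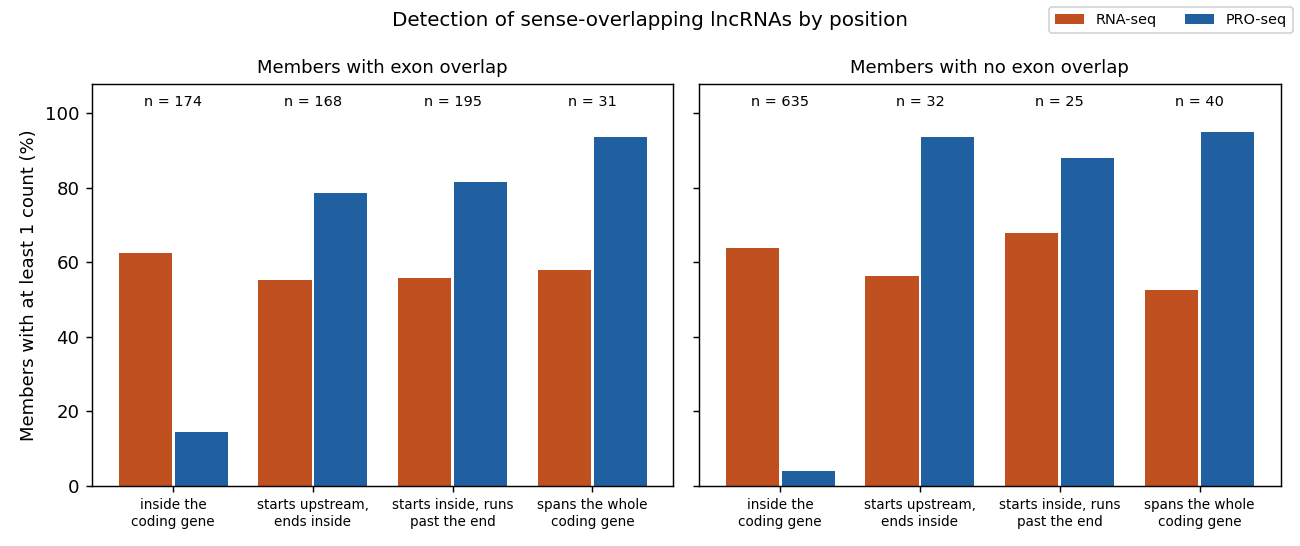
Percent of members (vertical axis) with at least 1 count summed over the 4 RNA-seq or the 2 PRO-seq libraries, by position relative to the coding gene, for members with and without exon overlap; n is the number of members. PRO-seq detection is lowest for members inside the coding gene, 14.37% with exon overlap and 4.094% without, while RNA-seq detection lies between 52.5% and 68.0% in every position.

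The bases on which a member could be counted moved with its PRO-seq counts. The deposited tables have a row for ambiguous reads, in which HTSeq places reads that fit more than 1 counted feature, but the mode and the use of strand are not given. Following the authors' methods, the PRO-seq feature is taken here as the whole span of the TU less 500 bp at each end. The bases of a member that no other counted transcript covers on the same strand are called countable here. For PRO-seq, 737 members had no countable base, and 10 of them (1.357%) had a count. Of the 208 members with up to 50% of their bases countable 154 had a count, of the 177 with more than 50% but not all 170 did, and of the 178 with all bases countable 127 did. The RNA-seq feature is the exons only, for which 833 members were wholly countable and 64 had no countable base. Whether a nested member at 0 in PRO-seq was transcribed cannot be told from these counts. Of 647 members wholly inside a counted coding transcript of the same strand 3 had a PRO-seq count (0.4637%), whereas of 2220 antisense lncRNAs wholly inside a coding transcript of the other strand 1365 did (61.49%). These are different sets of TUs, and the part of overlap or strand in their counts was not tested.

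**Figure D2:**
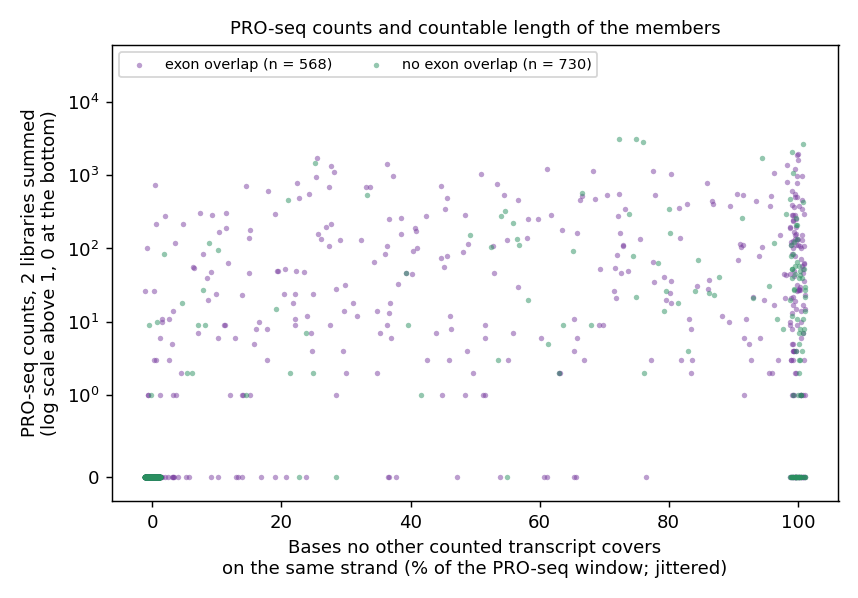
PRO-seq counts of each member summed over 2 libraries (vertical axis, log scale above 1) against the percent of its PRO-seq window that no other counted transcript covers on the same strand (horizontal axis, jittered), for members with a span over 1000 bp. Members with no countable base form the dense group at 0 counts on the left, and counts reach 3138 on the right.

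The members took a larger share of PRO-seq than of RNA-seq counts. They held 0.664% of the counts on matched transcripts in each PRO-seq library and between 0.168% and 0.181% in the RNA-seq libraries, so the groups did not overlap. The difference in means was 0.489 percentage points (exact permutation test over libraries, two-sided, p = 0.133, the smallest that 15 arrangements allow). RNA-seq replicates 1 and 3 held 0.1706% and 0.1682%, and replicates 2 and 4 held 0.1808% and 0.1803%. If these pairs are not independent, the test and the SDs below count too many libraries. With exon overlap the mean share was 0.473% ± 0.0023 (SD, n = 2) in PRO-seq and 0.123% ± 0.0030 (SD, n = 4) in RNA-seq. Without exon overlap it was 0.191% ± 0.0026 and 0.0517% ± 0.0039. A few members held much of this. The 10 highest members of the group held 42.7% of all member counts in RNA-seq and 24.7% in PRO-seq.

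The most abundant member in RNA-seq was ENSG00000264772, a 12-exon transcript that starts inside EIF4A1, the gene of the translation initiation helicase, by the annotation and also crosses CD68. Its 4 RNA-seq libraries held 102.3, 88.0, 97.9 and 84.5 TPM and its 2 PRO-seq libraries 143.9 and 137 TPM. The values of each assay lie close together. TPM is scaled within each assay, and the median mRNA had a log2 of RNA-seq over PRO-seq TPM of -0.651. A gap in TPM between the assays therefore says little alone, here and for the members below. Of its 4554 exon bases 2322 are coding sequence of an overlapped gene. The counted transcript of EIF4A1 itself has no countable base in either assay and was at 0 counts in all 6 libraries. These counts therefore give no level for EIF4A1. The member has 1113 countable exon bases, and 602 of its exon bases lie outside the exons of the coding genes. Whether its counts include reads of the overlapped coding genes cannot be told. Its log2 ratio of RNA-seq to PRO-seq against the median mRNA was 0.06 ± 0.09 (SE; edgeR adjusted p = 0.5), and -0.34 (adjusted p = 0.00061) with countable lengths in place of full ones.

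DSCR8, a lncRNA of chromosome 21 that starts upstream of the potassium channel gene KCNJ15 and ends in it, was the clearest case of a member with much RNA for its transcription. Its RNA-seq values were 83.2, 85.6, 90.0 and 97.8 TPM and its PRO-seq values 32.9 and 36.3 TPM. All 4 RNA-seq values stand above both PRO-seq values. All of its bases were countable in both assays. Its log2 ratio was 2.01 ± 0.09 (SE) above the median mRNA (edgeR adjusted p = 2.4e-19). It was 2.04 with countable lengths, which for this member equal the full ones, so that setting is no check on it. The coding gene KCNJ15 was at 7.51 TPM in PRO-seq and at only 1.47 TPM in RNA-seq, so the member was the more abundant of the pair in both assays.

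ENSG00000263244 is a 1-exon transcript of 8334 bases inside HAPSTR1, a gene of the stress response. All of its bases are exon bases of some annotated HAPSTR1 transcript, none of them coding, and none lies in the exons of another counted transcript. Its RNA-seq values were 50.3, 54.1, 49.5 and 53.6 TPM. HAPSTR1 itself was at 50.9 TPM, a level that lies within the member's range. In PRO-seq the member was at 0 in both libraries and had no countable base, whereas HAPSTR1 was at 124.1 and 117.8 TPM.

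ENSG00000288606, a 4-exon transcript that starts in FAM200B and runs past its end, had 52.1, 42.6, 48.4 and 45.6 TPM in RNA-seq, next to 40.4 and 33.1 TPM in PRO-seq. The RNA-seq values all stand above the PRO-seq values, by a small margin. Its log2 ratio was 1.01 ± 0.12 above the median mRNA (edgeR adjusted p = 5.3e-09). It shares all of its 572 exon bases with coding genes, 199 of them coding.

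Among the members highest in PRO-seq, 3 with exon overlap started inside a coding gene and ran past its end. ENSG00000242861, a 2-exon transcript at TMEM63A, had 386.7 and 425.2 TPM in PRO-seq (464 and 520 counts) against 4.39, 10.4, 6.53 and 6.64 TPM in RNA-seq. The assays are far apart, with a log2 ratio of -5.18 (edgeR adjusted p = 3.3e-23). The top PRO-seq values, 1125 and 965.7 TPM for ENSG00000243762 at TRMT2A and 796.2 and 781.1 TPM for ENSG00000263235 at TRAP1, rest on 30 and 28 counts over windows of 55 and 68 bp left after trimming, and are that uncertain. Without exon overlap, ENSG00000272418 and ENSG00000259644, which lie wholly inside SKIC8 and TJP1, also rested on few counts. The former had 272.8 and 362.1 TPM in PRO-seq from 17 and 23 counts over a window of 241 bp, and 3, 0, 2 and 0 counts in RNA-seq. The latter had 134.1 and 109.6 TPM in PRO-seq from 12 and 10 counts over 346 bp, and 3, 3, 2 and 2 counts in RNA-seq.

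**Figure D3:**
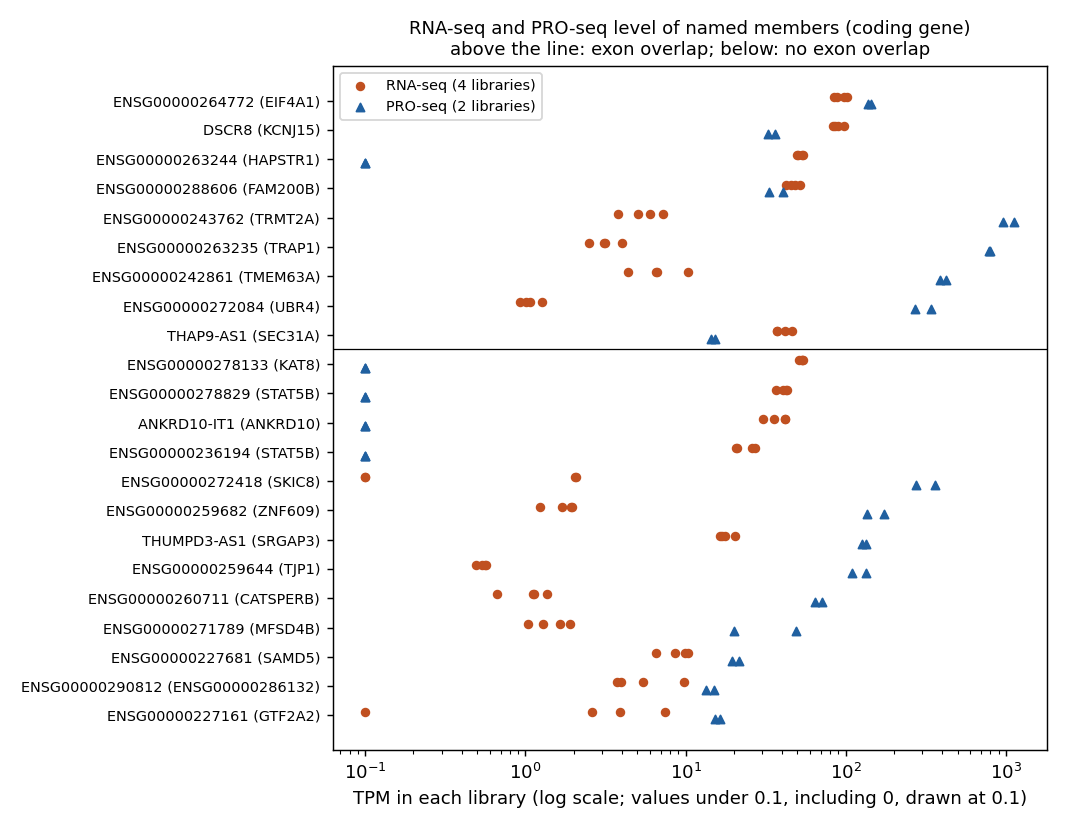
TPM in each library (horizontal axis, log scale, values under 0.1 drawn at 0.1) for 22 members named by level or half-life that have a countable exon base, with the coding gene in brackets; circles are the 4 RNA-seq libraries and triangles the 2 PRO-seq libraries. DSCR8, ENSG00000288606 and THAP9-AS1 are the members with RNA-seq above PRO-seq values that are not 0.

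The members with the highest RNA-seq level and no exon overlap all lay inside introns. ENSG00000278133, a 2-exon transcript in KAT8, the gene of a histone acetyltransferase, had 53.0, 51.2, 53.1 and 54.4 TPM, the tightest spread of those named. ENSG00000278829 and ENSG00000236194 both lie in STAT5B, a signal transducer of cytokine receptors, and had 36.6 to 43.0 TPM and 20.5 to 27.3 TPM. ANKRD10-IT1 had 30.5, 41.6, 35.5 and 41.7 TPM. All 4 were at 0 PRO-seq counts in both libraries, and all 4 had no countable PRO-seq base. The coding genes were transcribed and expressed. STAT5B had 84.5 TPM in RNA-seq against 169.6 TPM in PRO-seq, KAT8 at 78.8 and 101, and ANKRD10 at 57.8 and 182.2, so the RNA-seq level of each member was below that of its coding gene.

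Over members inside a coding gene without exon overlap, 161 had at least 10 RNA-seq counts together with a coding gene that did. The median log2 ratio of their RNA-seq level to that of the coding gene was -3.564, and 9 of the 161 were above it. Across these members the level of the member and of the coding gene had a Spearman's rho of 0.3501, and the member's RNA-seq level and the coding gene's PRO-seq level one of 0.3803 (n = 179). These are descriptions across TUs that share libraries.

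The symbols of the gene nomenclature pick out parts of the same members, so their counts are no separate evidence. Symbols ending in -IT with a number, for intronic transcripts of a named coding gene, were carried by 99 members, all inside the coding gene and 93 without exon overlap. An RNA-seq count was found for 61 of them and a PRO-seq count for 2. Of the 24 with at least 10 RNA-seq counts 23 were at 0 in PRO-seq. CDC42-IT1 and SOS1-IT1 were at 0 although all of their PRO-seq bases, 4003 and 558, were countable. The others of the 23 had no countable PRO-seq base. GABPB1-IT1, a 1-exon transcript of 5926 bp in the gene of an ETS-family partner protein, had the most counts, at 211, 263, 145 and 179, or 9.06, 10.7, 9.27 and 9.98 TPM. N4BP2L2-IT2 had 30, 45, 37 and 42 counts, and ALMS1-IT1 36, 35, 24 and 29. NARF-IT1 was at 8.16 to 10.4 TPM and BACH1-IT1 at 5.08 to 6.82 TPM. Besides ANKRD10-IT1, DIP2A-IT1 and BRWD1-IT2, the other 16 had 11 to 110 summed RNA-seq counts, or 0.43 to 6.72 TPM, and no PRO-seq count. The only one of the 24 with PRO-seq counts was BRWD1-IT2, with 2 and 7. Its span of 1000 bp leaves no window for a PRO-seq TPM, so the feature counted for it differed from the window used here. Whether the windows of other short members differ too was not tested. Of the 14 -OT members, named as overlapping transcripts, 8 had an RNA-seq and 7 a PRO-seq count. ANXA2R-OT1, which spans all of ANXA2R, had 818 and 872 PRO-seq counts and 11, 19, 10 and 20 RNA-seq counts. Its log2 ratio was -2.56 ± 0.15 (SE; edgeR adjusted p = 1.2e-15).

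A relative half-life, the ratio of RNA-seq to PRO-seq TPM, was estimated for TUs over 2 thresholds, more than 10 TPM of nascent RNA (PRO-seq) and more than 1 TPM of steady-state RNA (RNA-seq). Of 148 members above 10 TPM in PRO-seq 77 were also above 1 TPM in RNA-seq (52.03%), against 95.33% of mRNAs, 63.73% of lincRNAs and 57.82% of antisense lncRNAs. The estimate thus exists for 60 members with exon overlap and 17 without, and counts in all 6 libraries were found for 74 of these 77. Another 200 members above 1 TPM in RNA-seq were at 0 in PRO-seq and have no estimate.

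Most members with an estimate had less RNA for their transcription than the median mRNA. By edgeR's quasi-likelihood test, fitted on 10046 TUs, 61 of 77 members (79.22%) were below the median mRNA at adjusted p under 0.05, where 50.4% of all TUs tested were. Above it were 9 members (11.69%), where 40% of all TUs tested were, and 7 were not called. Without PRO-seq replicate 2 the members above numbered 5. With at least 1 summed count in each assay as the only threshold 153 of 284 members (53.87%) were below and 98 were not called, where 33.44% of mRNAs were below. With exon overlap 46 of 60 were below and 8 above. Without exon overlap 15 of 17 were below and 1, PYDC2-AS1, was above. The shares below were 87.13% of 536 lincRNAs and 90.91% of 473 antisense lncRNAs. With countable lengths 101 members could be tested. Of these 87 were below, where 50% of all TUs tested were, and 9 above, where 40.1% were.

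The median log2 half-life was -3.158 with exon overlap (n = 60) and -3.211 without (n = 17). Each RNA-seq library was also paired with each PRO-seq library, and over these 8 combinations the medians ranged from -3.448 to -3.246 and from -3.706 to -2.932. Across members the quartiles were -5.296 and -1.444 with exon overlap and -4.026 and -2.069 without, and the difference between the subgroups was not tested. The median was -0.651 for mRNAs, -3.062 for lincRNAs and -3.544 for antisense lncRNAs. With full lengths both medians of the members lay between those of the other lncRNA classes. With countable lengths the medians were -3.408 (n = 85) with exon overlap, -3.679 (n = 16) without and -0.706 for mRNAs. They were -3.047 for lincRNAs and -3.483 for antisense lncRNAs, so the median without exon overlap was then below both classes. A single member's estimate is less precise than an mRNA's. The median SD of log2 half-life between library combinations was 0.3116 with exon overlap and 0.5205 without, against 0.1264 for mRNAs. It was 0.3536 for lincRNAs and 0.4308 for antisense lncRNAs, so the lower precision is not particular to the members.

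Over both subgroups, members that start inside the coding gene and run past its end had the lowest median, -4.232 (n = 33). Next came those that start upstream at -3.118 (n = 25), those inside at -2.392 (n = 15) and those that span the coding gene at -0.938 (n = 4). Across members the quartiles of the first 2 positions, -5.636 to -2.269 and -4.068 to -2.361, overlapped widely. Over library combinations the medians ran from -4.653 to -3.589, from -3.421 to -3.037 and, for members inside, from -3.706 to -1.785, which covers the error between libraries only. The difference between positions was not tested. The order differed by subgroup. With exon overlap the medians were -4.475 (n = 29) past the end, -3.197 (n = 21) from upstream and -0.901 (n = 8) inside. Without exon overlap they were -2.397 (n = 4), -2.619 (n = 4) and -4.026 (n = 7), so there the members inside were lowest. With countable lengths and both subgroups together the order of these 3 positions was as with full lengths, at -4.021, -3.406 and -2.867. The median of those that span the coding gene moved to -2.448 (n = 7). Of all TUs tested 50.4% were called below the median mRNA and 40% above. Of the 33 that run past the end 28 (84.85%) were below and 3 (9.091%) above. Of the 25 that start upstream 22 (88%) were below and 1 (4%) above. Of the 15 inside 9 (60%) were below and 3 (20%) above, so the share below was nearer to that of all TUs.

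**Figure D4:**
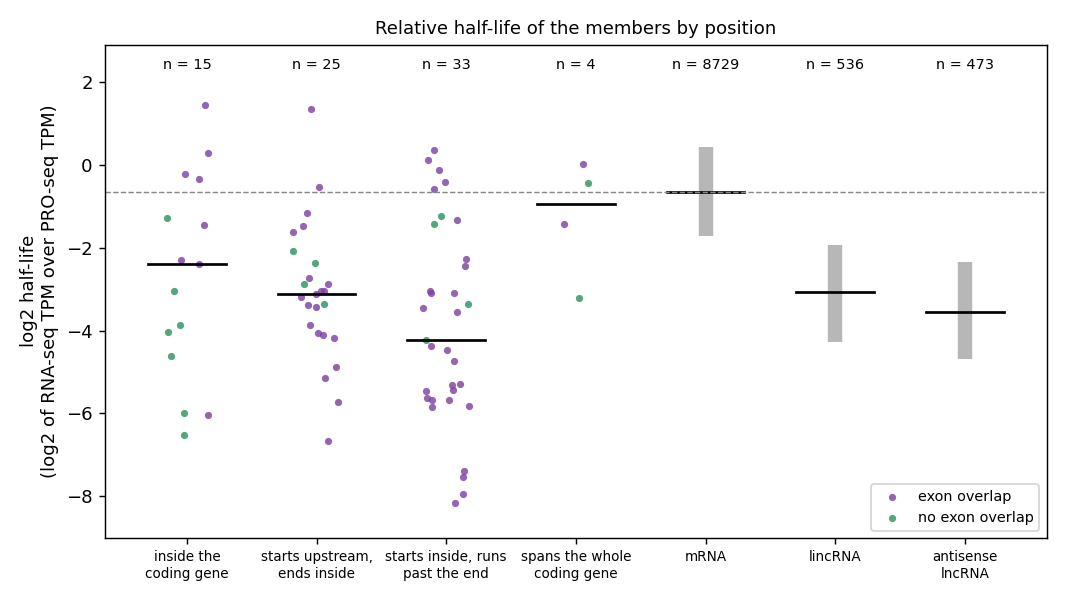
Relative log2 half-life (vertical axis, log2 of RNA-seq TPM over PRO-seq TPM, full lengths) of the 77 members with an estimate, by position; each point is a member and black lines are medians. Grey bars give the quartiles of mRNAs, lincRNAs and antisense lncRNAs, and the dashed line the mRNA median of -0.651. Members that run past the end of the coding gene have a median of -4.232 and reach -8.165.

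The lowest estimate belonged to ENSG00000272084, the 1-exon transcript that reads from the last part of UBR4, a ubiquitin ligase gene, past its end. It had 168 and 217 counts in PRO-seq, or 270.5 and 342.7 TPM, and 17, 13, 9 and 11 counts in RNA-seq, or 0.922 to 1.27 TPM. The assays are far apart in every pair of libraries. The log2 ratio against the median mRNA was -7.51 ± 0.17 (SE; edgeR adjusted p = 2.6e-26), and -7.30 with countable lengths. UBR4 itself had 195.9 TPM in PRO-seq against 52.5 TPM in RNA-seq. Only 62 of the member's 3402 exon bases are coding sequence. PINK1-AS, chosen here after its values were seen, is named for lying antisense to PINK1, shares 427 bp with the end of DDOST on its own strand and had 387 and 404 counts in PRO-seq. The ratio stood at -5.02 ± 0.10 (edgeR adjusted p = 1.1e-27).

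Among members without exon overlap the lowest estimates were those of ENSG00000259682 in ZNF609, ENSG00000260711 in CATSPERB and ENSG00000271789 in MFSD4B. ENSG00000260711, a 1-exon transcript of 6943 bases that is wholly countable, had 110 and 101 PRO-seq counts and 31, 32, 25 and 14 RNA-seq counts. Its log2 ratio was -5.34 (edgeR adjusted p = 3.7e-21), against -0.33 for CATSPERB. ENSG00000259682 rests on 9 counts in each assay and a window of 112 bp with no countable base, and ENSG00000271789 on 7 PRO-seq counts. THUMPD3-AS1, which starts upstream of SRGAP3 and ends in an intron, was the best measured member of this subgroup. It had 1594 and 1531 PRO-seq counts, or 134.1 and 126.4 TPM, and 16.5, 17.6, 16.9 and 20.3 TPM in RNA-seq. It was below the median mRNA by a log2 ratio of -2.22 ± 0.07 (edgeR adjusted p = 3.1e-23), while SRGAP3 was barely transcribed, at 0.636 TPM in PRO-seq. ENSG00000227161, which crosses GTF2A2 and BNIP2, rested on 5 RNA-seq counts, and its log2 ratio of -1.42 (edgeR adjusted p = 0.02) held in 7 of 13 alternatives. It was not called with DESeq2, with the replicate block, at 1 summed count, without RNA-seq replicates 3 and 4 together, or without RNA-seq replicate 1 or 4 (adjusted p of 0.12, 0.17, 0.27, 0.16, 0.065 and 0.081). ENSG00000290812 runs past the end of a coding gene known by its identifier only, ENSG00000286132, and had 153 and 175 PRO-seq counts and 8, 9, 14 and 9 RNA-seq counts. It was among the highest of this subgroup, at -0.77 ± 0.25 (edgeR adjusted p = 0.0048) from full and -1.61 from countable lengths.

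Of the 9 members above the median mRNA some depended on the length used. THAP9-AS1, a 5-exon transcript inside the SEC31A gene, had the highest estimate. Its RNA-seq values were 42.1, 37.3, 37.4 and 45.9 TPM and its PRO-seq values 14.5 and 15.3 TPM, from 26 and 28 counts. With the full length its log2 ratio was 2.10 ± 0.17 (edgeR adjusted p = 2.4e-12). Only 422 of its 6952 PRO-seq bases were countable, and with countable lengths the ratio was -1.71 (adjusted p = 2.4e-07), on the other side of the median mRNA. ENSG00000261487, which spans ORAI3 and is 9.612% countable in PRO-seq, moved likewise from 0.66 to -1.74. Members that are wholly countable have the same length under both settings, so they could not move in this way. NRAV, a lncRNA inside SRSF9 known for its link to antiviral gene expression, was at 0.94 ± 0.27 (adjusted p = 0.0021) and LINC00200 at WDR37 at 0.53 ± 0.15 (adjusted p = 0.0018), with 0.97 and 0.56 from countable lengths. PYDC2-AS1 was at 0.21 ± 0.09 (adjusted p = 0.039) and 0.24, and was not called without RNA-seq replicate 2, RNA-seq replicate 4 or PRO-seq replicate 2. These were named here after their values were seen, as was CHASERR, a lncRNA next to the chromatin remodeler gene CHD2 that is known to limit its expression. CHASERR had 325, 381, 255 and 289 counts in RNA-seq and 373 and 412 in PRO-seq. The log2 ratio came to -0.82 ± 0.08 from full and -2.91 from countable lengths, since 21.86% of its PRO-seq window is countable.

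The number of exons and the span went along with the estimate across the 77 members, with Spearman's rho of 0.3906 and 0.4051, whereas over 8729 mRNAs the values were 0.05594 and 0.02816. Members with 1 or 2 exons had a median log2 half-life of -4.425 (n = 36) and those with 3 or more -2.727 (n = 41). PRO-seq TPM divides by the span less 1000 bp, so the span enters the estimate itself, most for short spans. ENSG00000263235 and ENSG00000243762, at -7.94 and -7.52, have windows of 68 and 55 bp. How much of these relations comes from the length used was not tested. Across members with a count in both assays RNA-seq and PRO-seq TPM had a rho of 0.6043 (n = 284), with 0.6371 for exon overlap and 0.4839 for no exon overlap. This was below the 0.8347 of mRNAs, the 0.7141 of lincRNAs and the 0.6961 of antisense lncRNAs. The points share their libraries, and with at least 10 counts in each assay the value for the members was 0.254.

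The coding genes themselves did not share the members' low ratios. Of 463 overlapped coding genes tested 222 (47.95%) were below the median mRNA and 208 (44.92%) above, near the 50.4% and 40% of all TUs. In 50 pairs both the member and the coding gene it overlaps most had an estimate, and the member was the lower in 45. The median of member minus coding gene was -3.209 in log2 half-life, with -3.917 to -2.839 over the library combinations and quartiles of -4.944 and -1.353. All 10 pairs without exon overlap and 35 of 40 with it had the member lower. With countable lengths the member was lower in 57 of 61 pairs and the median was -3.025. The widest gaps rest on the short window of ENSG00000263235 and, with ample counts, on PINK1-AS against DDOST, a subunit gene of the oligosaccharyltransferase, at -7.748. The pairs with the member higher under both lengths were LINC00200 with WDR37 (1.136) and ENSG00000258454 with GPATCH2L (2.011).

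**Figure D5:**
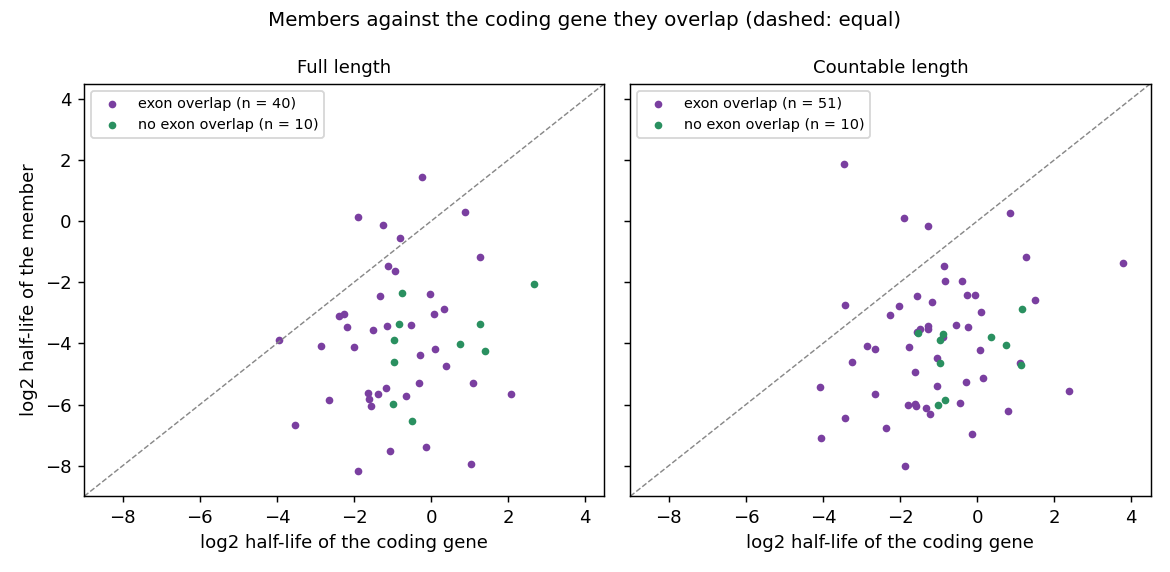
log2 half-life of a member (vertical axis) against that of the coding gene it overlaps most (horizontal axis), from full lengths on the left (50 pairs) and countable lengths on the right (61 pairs); the dashed line marks equality. The member lies below the line in 45 of 50 and in 57 of 61 pairs.

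The nascent level of a member was set beside that of its coding gene, by position. Among pairs with at least 10 counts each and countable lengths, the Spearman's rho of the PRO-seq levels was 0.7063 for members that run past the end (n = 93), 0.307 for those that start upstream (n = 73) and 0.1053 for those inside (n = 20). The median log2 ratio of the member's PRO-seq level to that of the coding gene was near 0 in each, at 0.04336, 0.01799 and 0.1516. RNA-seq levels were compared over other sets of pairs, in which the member was lower, with medians of -3.224 (n = 45), -2.085 (n = 38) and -3.494 (n = 210). The PRO-seq and RNA-seq medians thus do not describe the same members. This holds most for those inside, of which 51 of 809 had any PRO-seq count. How much of the PRO-seq signal past a gene's end comes from polymerases that began at the coding gene was not tested.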

How the data were processed

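The authors trimmed reads with cutadapt, aligned them with HISAT2 to GRCh38 and counted them with HTSeq on GENCODE annotations, and deposited raw counts per transcript for each library (K562, 4 RNA-seq and 2 PRO-seq libraries), without normalization. Per their methods 500 bases at each end were left out for PRO-seq. Neither the versions nor HTSeq's mode and use of strand are given in the sources used here. Rows that name no transcript (ambiguous, no feature, low quality, not aligned, not unique) held 66.46% to 68.56% of RNA-seq and 86.53% or 88.56% of PRO-seq records and were left out, as were 801 reference rows that were all 0.

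Transcripts were joined by ID to GENCODE release 44 lifted to GRCh37 (88.1% of 42371 matched), which gave classes, lengths and coordinates, and these can differ from those counted on. TPM used exon length for RNA-seq and span minus 1000 bp for PRO-seq. Countable length, the bases covered by no other counted transcript on the strand (minimum 100 bp), was an alternative. edgeR 4.0.16 (quasi-likelihood, TMM, length offsets, Benjamini-Hochberg over 10046 TUs) compared RNA-seq with PRO-seq, centred on the median mRNA. Tested on simulated data of 10046 TUs, it found 94% of 200 that were changed by a log2 value of 1, with 10 false calls. There all other TUs were alike in both assays, and 1 fixed spread between libraries was used for every TU. In the data 50.4% of TUs were called below and 40% above, so these figures give no error rate for the members. DESeq2 1.42.0 was an alternative. R 4.3.3 and Python 3.11.15 were used.

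The members, lists and alternatives were chosen with earlier results of these data known. Members are named if among the 4 highest in RNA-seq or PRO-seq TPM, or the 3 highest or lowest called half-lives (with replicates 1 and replicates 2 each giving the same side) of each subgroup, or if -IT or -OT with at least 10 RNA-seq counts, along with their coding genes. Most of the -IT members are given as ranges, and 1 of the members so named is not reported here. Others are said to be chosen later. Alternatives on the 50% countable minimum, the close RNA-seq pairs, countable lengths in pairs and position were added after seeing the data. RNA-seq replicates 1 and 3, and 2 and 4, differed by little more than sampling noise (chi-square per degree of freedom of 1.118 and 1.119, against 1.741 to 2.108 for other pairs). The SDs, the permutation test and edgeR still treat all 4 as separate libraries. Without replicates 3 and 4 edgeR called 61 of 78 members (78.21%) below the median mRNA, where 44.25% of mRNAs were. It called 6 (7.692%) above, where 44.55% of mRNAs were.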

Additional observations from a re-analysis of the deposited data

Results flagged for a closer look

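In 2 members the RNA-seq library farthest from the other 3 stood apart by Dixon's test. Chance gives such a gap in about 1 in 20 groups, and 47 members were tested. DIP2A-IT1, in an intron of DIP2A, had 1.19, 1.69, 0.885 and 6.95 TPM in RNA-seq replicates 1 to 4, from 2, 3, 1 and 9 counts, with a gap of 0.867 of the whole range. ST7-OT4, which shares exon bases with ST7, had 7.75, 6.94, 2.57 and 7.82 TPM, from 18, 17, 4 and 14 counts, with a gap of 0.832.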

How the results depend on the processing

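Of the summary values that answer a comparison, 100 stayed within their spread or 1.5-fold under an alternative and 29 moved, none to the other direction. The 61 members below the median mRNA (79.22% of those tested) became 153 of 284 (53.87%) with at least 1 summed count in each assay, 38 of 44 (86.36%) above 20 and 2 TPM, and 28 of 38 (73.68%) with at least 50% of the span inside the coding gene, where mRNAs were at 44.93%, 33.44% and 45.27% in the first 3. The 9 above (11.69% of those tested) became 33 (11.62%), 18 at 10 summed counts (16.07%), 3 (6.818%) and 5 in turn. They became 5 with 500 bp removed for PRO-seq (6.667%), and 5 (without PRO-seq replicate 2) to 8 with 1 library left out. At 1 summed count 400 of 925 overlapped coding genes (43.24%) were above, where 41.99% of mRNAs were. In the main fit the share was 44.92%, so the count moved with the number tested. The median log2 half-life with exon overlap was -3.413 above 20 and 2 TPM, -3.449 at 50% countable bases, -3.408 with countable lengths, -3.249 with 500 bp removed, -2.947 with a pseudocount of 1 TPM, -3.449 when only exons of the counted coding transcript defined overlap, -2.911 with 50% of the span inside, and -3.371 without RNA-seq replicates 3 and 4. Leaving out 1 library gave -3.406 (without PRO-seq replicate 1) to -3.161. Without exon overlap it was -2.876 at 10 summed counts, -3.679 with countable lengths, -2.907 with the pseudocount and -3.951 with 50% of the span inside. Leaving out 1 library gave -3.443 to -3.047. Counts in both assays fell to 112 members at 10 summed counts and 126 with 50% of the span inside. The rho of 0.6043 was 0.254 at 10 summed counts. Leaving out 1 library gave 0.578 (RNA-seq replicate 3) to 0.603, and for the median of member minus coding gene -3.688 (RNA-seq replicate 2) to -3.048. Among named members, ENSG00000264772 (-0.34) and THAP9-AS1 (-1.71) changed side with countable lengths and ENSG00000227681 (0.05) at 1 summed count. The cause of the other moves was not tested.

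Replicate numbers 1 and 2 occur in both assays. The differences of replicates 1 and 2 had a correlation of -0.005781 between the assays over 9956 TUs. This shows no difference shared by libraries of the same number, but it cannot tell whether they were paired. With the replicate block 60 of 77 members were below (14 of the 17 without exon overlap, from 15) and 6 above. Of 463 overlapped coding genes 216 (46.65%) were below and 202 (43.63%) above, where mRNAs were at 43.98% and 44.33%. PYDC2-AS1 lost its call there, with DESeq2, with 500 bp removed, above 20 and 2 TPM, without RNA-seq replicates 3 and 4 together, and without RNA-seq replicate 2 or 4 or PRO-seq replicate 2. ENSG00000227161 lost its call in 6 of 13 alternatives. Depth limits the members, since the median member with an RNA-seq count had 8 summed counts, and so does overlap, with 737 of 1300 members having no countable PRO-seq base.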
